A study of Homo sapiens with 6 samples.

Results

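Open chromatin in GM12878 cells sorted for high H3K27ac was compared with open chromatin in the live, unsorted cells of the same line. The comparison was defined by the sample titles and used 4 of the 6 libraries of the series, 2 labelled H3K27ac high and 2 labelled live control. GM12878 is a human B lymphoblastoid line, made by transforming B cells with Epstein-Barr virus. All cells were at low passage and carried no engineered allele or drug treatment named in the labels. Cells of the high group were stained for viability, fixed with paraformaldehyde, permeabilised, stained with an antibody and sorted. Each replicate held 50000 cells, which were transposed for 30 min at 37 °C, and crosslinks were then reversed overnight. In the live control the DNA was purified directly after transposition. The labels call the live control unsorted and made from fresh cells, but repeat the staining and fixation text for it, so that it was neither stained nor fixed is implied and not stated. High H3K27ac, sorting and crosslink reversal therefore separate the groups, as staining, fixation and permeabilisation may, and these cannot be told apart. The labels describe replicates as divided from counted cells, so the spread between them may be technical, and p-values measure only that spread. The H3K27ac low libraries are not analysed here.

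In ATAC-seq the transposase Tn5 inserts sequencing adapters into DNA that nucleosomes leave exposed, so promoters and enhancers in use give peaks of insertions. InTAC-seq is a version for cells that were fixed and stained inside. H3K27ac, acetylation of lysine 27 on histone H3, is laid down by the acetyltransferases p300 and CBP and is found at promoters and enhancers that are in use. In B lymphoblastoid cells such elements include those of the B cell receptor, of antigen presentation and of NF-kB signalling, which the viral protein LMP1 keeps switched on.

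The deposited lists gave peak summits, the single base at which each peak is highest, with a score from the authors' peak caller. The high lists held 25754 (replicate 1) and 46708 (replicate 2) summits and the live lists 70100 and 72476. Read numbers were not used here and depth is unknown, so list length stands in for it. Summits on chromosomes 1 to 22 that lay under 500 bp apart were chained into 86454 regions, with a median width of 34 bp. Within a library a region took the score of its best summit, regions were put in order with rank 1 as the best, and the 24365 best of each library were compared. That number is the whole list of high replicate 1 and the upper 55.1%, 36.6% and 35.4% of the lists of high replicate 2 and live replicates 1 and 2. A region was at a gene start when its summit lay within 1 kb of the start of a protein-coding gene, and a gene was open when a best region had a summit there. The start was known from RefSeq promoters (GRCh38.p14) for 15100 of 19122 genes, and either annotated end was accepted for the other 4022.

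High replicate 1 stood apart from the other 3 libraries. It shared 76.2% of its best regions with high replicate 2 and 72.0% and 72.3% with live replicates 1 and 2. High replicate 2 shared 79.5% and 80.1% of its best regions with the live replicates, more than with the other high library. The live replicates shared 84.1% with each other. Percentile ranks over the 21131 regions called in all 4 full lists gave the same order: Pearson's r across regions was 0.771 between the high replicates, 0.667 and 0.668 between high replicate 1 and the live replicates, 0.807 and 0.805 between high replicate 2 and the live replicates, and 0.897 between the live replicates. Regions are not independent replicates, and r is given as a description. For that reason values of each high library are given separately below.

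Of the 12 B cell markers 7 were open in each library, and markers of other lineages mostly were not open. MS4A1, which encodes CD20, ranked 1257 and 2568 in the high libraries and 939 and 1763 in the live libraries at its best region. CD74, the invariant chain of MHC class II, ranked 501 and 1279 in the high libraries, against 4780 and 4893 in the live libraries, so both high ranks were better. CD40, CD79B, FCER2 and POU2AF1 were also open in all 4 libraries. At CD40 the live ranks were better, with 21378 and 17551 in the high libraries, against 11520 and 12510 in the live libraries. CD79B ranked 11063 and 16668 against 22136 and 23161, and POU2AF1 11300 and 12432 against 13317 and 15928. At FCER2 the groups overlapped, with 10939 and 17607 against 12578 and 15474. CD79A was not open in high replicate 1, PAX5 was open in high replicate 1 only, and CD22, CR2 and EBF1 were among the markers with no best region at the start in any library. Of the myeloid markers 0, 0, 1 and 1 of 18 were open (high 1, high 2, live 1, live 2), of the erythroid and megakaryocyte markers 0 of 14 in each, and of the T and NK cell markers 2, 5, 5 and 5 of 21.

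Chromosomes 17, 19 and 22 held fewer of the strongest regions in the high libraries. Among the 500 best regions, 1 and 7 lay on chromosomes 17, 19 and 22 in the high libraries (0.200% and 1.40%), against 30 and 40 in the live libraries (6% and 8%). The exact binomial 95% intervals, which cover counting error only, ran to 1.11% and 2.86% in the high and began at 4.08% and 5.78% in the live libraries. Among the 2500 best the shares were 3.32% and 5.80% in the high libraries, against 9.56% and 9.24% in the live libraries. Over all 24365 best regions they were 7.17% and 8.55% against 10.4% and 10.1%, so the groups did not overlap at any of these lengths and lay closest in the longest list. Chromosome 19 alone gave 1 and 2 of the 500 best regions in the high libraries, against 20 and 28 in the live libraries. Chromosome 4, which has few genes, gave 59 and 44 against 35 and 31. The 3 chromosomes were pooled as those with the lowest shares relative to the live libraries and not by gene density. Chromosomes 19 and 17 had the most protein-coding genes per Mb (24.8 and 14.1), while chromosome 22 had 8.88, fewer than chromosomes 11 and 16 (9.68 and 9.48). The pooling was done after these values were seen, and with earlier results of these data known, so it gets no test.

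**Figure D1:**
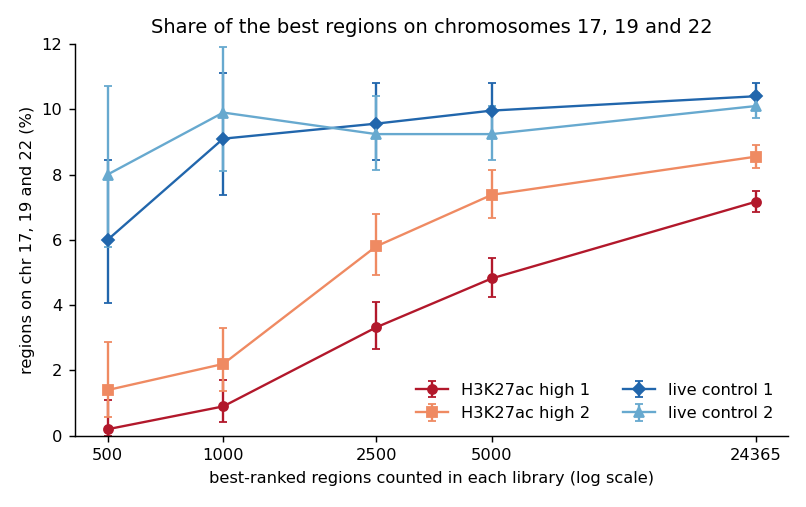
Share of each library's best-ranked regions on chromosomes 17, 19 and 22 (y axis, percent) against the number of best regions counted (x axis, log scale), 1 line per library, with exact binomial 95% intervals. Both H3K27ac high libraries lie below both live control libraries at every length, from 0.200% and 1.40% against 6% and 8% at 500 regions to 7.17% and 8.55% against 10.4% and 10.1% at 24365 regions.

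The ratio of the mean high share to the mean live share was 0.698 on chromosome 22, 0.761 on chromosome 17 and 0.800 on chromosome 19. It was 1.15 on chromosome 4, 1.12 on chromosome 8 and 1.11 on chromosome 18. Both high libraries were above both live libraries on 10 chromosomes and below them on 8, and the groups overlapped on 4. High replicate 1 was farther from the live libraries than high replicate 2 on chromosomes 17, 19 and 22, with 3.03% and 3.48%, 3.12% and 3.71%, and 1.02% and 1.36% of the best regions for replicates 1 and 2. The live shares there were 4.33% and 4.23%, 4.37% and 4.17%, and 1.70% and 1.71%. At 24365 regions the difference between the group means over these 3 chromosomes was -2.39 percentage points. It was -1.70 without high replicate 1 and -3.08 without high replicate 2. With high replicate 2 alone, and lists as long as its own, it was -1.24.

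**Figure D2:**
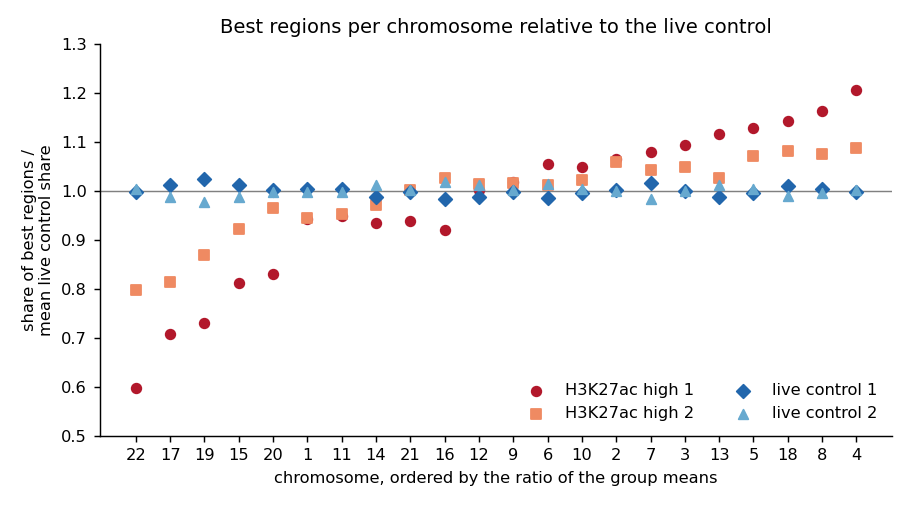
Share of best regions per chromosome in each library divided by the mean of the live control libraries (y axis), chromosomes ordered by the ratio of the group means from 0.698 (chromosome 22) to 1.15 (chromosome 4) (x axis). High replicate 1 lies farther from 1 than high replicate 2 on chromosomes 22, 17, 19 and 4.

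Neighbourhoods with few genes held more, and those with many genes fewer, of the best regions in the high libraries. Regions with 0 to 4 protein-coding genes within 500 kb made up 29.5% and 25.3% of the best regions in the high libraries, against 23% and 23.3% in the live libraries. Regions with 15 to 76 genes made up 21.4% and 24.8% in the high libraries, against 27.4% and 27.2% in the live libraries. The groups did not overlap in either class, and high replicate 1 was the more distant library in both.

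Gene starts made up a slightly smaller share of the 24365 best regions in the high libraries. The share was 31.6% and 33.3% in the high libraries, a mean of 32.5% ± 1.22 (SD, n = 2). In the live libraries it was 34.1% and 34.0%, a mean of 34.1% ± 0.0813 (SD, n = 2). The difference of -1.60 percentage points compares with a gap between the high replicates of similar size. The exact permutation test over libraries (two-sided) gave p = 0.333, the smallest that 2 against 2 allow, and the same p after Benjamini-Hochberg adjustment over 5 places. Among the 12182 best regions the share was 43.6% and 48.0% in the high libraries, against 49.4% and 49.1% in the live libraries. The difference there was -3.45 points. In the lists of 5000 regions or fewer that were counted the groups overlapped. Among the 500 best regions the share was 77.2% and 83.6% in the high libraries, against 77.4% and 79.2% in the live libraries, and among the 2500 best it was 63.8% and 71.4% against 70.2% and 69.7%, so high replicate 2 was the highest library there. In the full lists, which are of unequal length, the difference turned to 10.4 points, and with high replicate 2 alone at its own list length it was 0.196 points. A bulk library cannot tell fewer cells with an open region from less opening per cell.

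Regions over 100 kb from any protein-coding gene took 10.8% and 8.52% of the best regions in the high libraries, against 7.55% and 7.65% in the live libraries (means 9.64% ± 1.58 and 7.60% ± 0.0667, SD, n = 2). Regions inside genes took 34.9% and 35.0% in the high libraries, against 34.4% and 34.7% in the live libraries. Regions 5 to 100 kb from a gene took 18.6% and 18.8% against 19.4% and 19.1%, and those outside but within 5 kb took 4.12% and 4.41% against 4.54% and 4.56%. The groups did not overlap for any of the 5 places, and each exact permutation test gave p = 0.333. Gene density moved with these values. In the sparsest neighbourhoods 11.7% and 13.1% of the high and 14.5% and 14.4% of the live regions lay at gene starts. In the densest neighbourhoods the order was the opposite, with 56.7% and 55.5% in the high libraries, against 52.2% and 52.4% in the live libraries.

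Of the 35671 regions among the best of any library, 15460 (43.3%) were among the best of all 4. Regions in both high and neither live library, called high-only here, numbered 1421 (3.98%). Regions in both live and neither high library, called live-only, numbered 1766 (4.95%). The largest class held by 1 library was that of high replicate 1, with 4052 regions (11.4%), and 2466 regions (6.91%) were missing from high replicate 1 only. Most high-only and live-only regions differed in rank and were not absent from the other group: 1321 high-only regions (93.0%) were called lower down in a full live list, and 1407 live-only regions (79.7%) in the full list of high replicate 2. No live-only region could be in high replicate 1, whose whole list was used. In the full lists 18 high-only and 340 live-only regions were over 1 kb from every summit of the group that lacked them. The full live lists are longer, so these counts are not on equal terms. Leaving out a library, so that fewer have to match, gave 3384 high-only and 2569 live-only regions without high replicate 1, and 5473 and 4232 without high replicate 2. Without live replicate 1 they numbered 2239 and 3559, and without live replicate 2 they numbered 2296 and 3722.

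High-only regions lay farther from gene starts than live-only regions. Of the high-only regions 153 were at a gene start (10.8%, Wilson 95% interval 9.26% to 12.5%) and 212 were over 100 kb from a gene (14.9%, 13.2% to 16.9%). Of the live-only regions 303 were at a gene start (17.2%, 15.5% to 19%) and 119 over 100 kb away (6.74%, 5.66% to 8%). In the regions shared by all 4 libraries 43.5% were at gene starts. The median distance to the nearest gene start was 35549 bp for high-only, 20281 bp for live-only and 6212 bp for shared regions. By chromosome, high-only and live-only regions numbered 23 and 142 on chromosome 17, 19 and 116 on chromosome 19, 5 and 64 on chromosome 22, and 105 and 63 on chromosome 4. The intervals cover counting error over regions and not the spread between libraries. The difference in gene-start share, -6.39 points, was -1.51 without live replicate 1, -2.34 without live replicate 2 and -14.0 without high replicate 2. It was 0.0475 with high replicate 2 alone at its own list length, and it turned to 45.1 when absence was asked of the full lists.

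Ranks were then compared over the 21131 regions called in all 4 full lists, ranked again within each library and written as percentiles, 100 being the best. Limma called 0 regions higher and 0 lower in the high libraries at an adjusted p under 0.05 (0% of the regions tested), the lowest adjusted p being 0.148. At an unadjusted p under 0.05 it gave 3808 regions (18.0%). Normal scores of the same ranks gave 123 higher and 93 lower regions at the adjusted threshold, and quantile-normalized log2 scores gave 126 and 94. Of the 93 lower regions on normal scores 31 lay on chromosomes 17, 19 and 22, and of the 123 higher regions 3 did. Of all 21131 regions tested 672, 700 and 235 lay on these chromosomes. They were pooled for their low shares in the same scores, so these counts are no independent support. Without high replicate 1 the percentile test called 1 region higher and 62 lower, and without high replicate 2 it called 1291 and 1547. In these fits the high group is 1 library, which is assumed to vary like the live pair. Both high libraries were above both live libraries for 26.0% of the regions and below them for 25.0%.

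The 10 gene starts with the largest rank difference in favour of the high libraries and the 10 with the largest in favour of the live libraries were named among those whose groups did not overlap, since limma called none on percentiles. PLEKHF2, the gene of an endosomal protein, was at percentiles 92.4 and 95.2 in the high libraries, against 25.0 and 32.3 in the live libraries, a difference of 65.1 ± 11.6 (SE; limma adjusted p = 0.148). SH2B3, an adaptor that restrains cytokine receptor signalling, was at 92.8 and 91.4 in the high libraries, against 23.7 and 32.1 in the live libraries. EIF3E, a subunit of translation initiation factor 3, was at 98.2 and 92.7 against 31.7 and 39.9. For all 3 genes the high replicates were close together, near the top of the scale, and the live replicates lay below its middle.

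AXIN1, a scaffold of the complex that degrades beta-catenin, was at percentiles 83.0 and 90.3 in the high libraries, against 27.6 and 27.9 in the live libraries. TOMM7, a component of the mitochondrial import pore, was at 92.6 and 85.9 against 28.7 and 30.7. ARF1, a GTPase of Golgi transport, was at 84.9 and 77.9 against 30.0 and 15.4. MRFAP1 was at 81.6 and 81.0 in the high libraries, against 10.3 and 30.9 in the live libraries. The other regions of this set were at CHST12, a chondroitin sulfotransferase gene, LIAT1 and NAA50, an N-terminal acetyltransferase gene. For CHST12 the live percentiles were 3.36 and 13.6, each the lowest of the 10 in its library, against 79.2 and 63.8 in the high libraries.

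**Figure D3:**
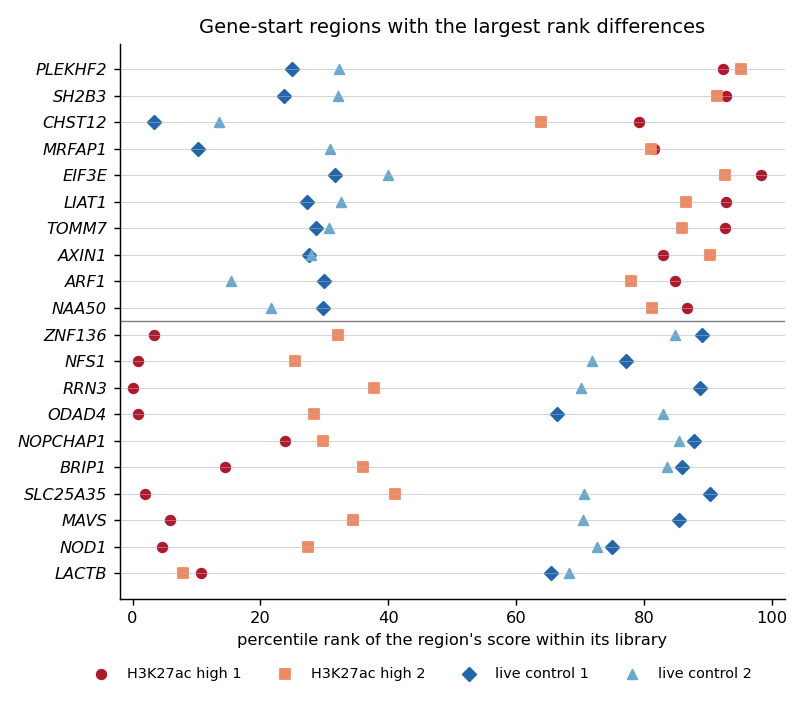
Percentile rank of the region at each gene start (x axis, 100 is the best score of a library) for the 10 gene starts with the largest difference in favour of the high (above the line) and of the live libraries (below it), 1 point per library. The high replicates mostly differ more from each other below the line, as at RRN3 (0.0615 and 37.8), than above it. LACTB (10.7 and 7.82) and NOPCHAP1 (23.9 and 29.8) are the exceptions.

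At the other end, ZNF136, a gene of the KRAB zinc finger family, was at percentiles 3.39 and 32.2 in the high libraries, against 89.0 and 84.9 in the live libraries, a difference of -69.1 ± 14.8 (SE; limma adjusted p = 0.148). NFS1, which supplies sulfur for iron-sulfur clusters, was at 0.842 and 25.4 against 77.2 and 71.8. RRN3, an initiation factor of RNA polymerase I, was at 0.0615 and 37.8 against 88.8 and 70.1. In all of these high replicate 1 was far below high replicate 2, and both were below the live libraries. Low percentiles of high replicate 1 can be ties between equal scores, as 0.842 at both NFS1 and ODAD4. The list of that library was used down to a score of 2.04. At the same length the scores were 12.1 in high replicate 2 and 17.2 and 18.6 in the live libraries.

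MAVS, the mitochondrial adaptor of RNA sensing, was at percentiles 5.86 and 34.4 in the high libraries, against 85.5 and 70.4 in the live libraries. NOD1, a sensor of bacterial peptidoglycan, was at 4.67 and 27.5 against 75 and 72.6. BRIP1, a DNA repair helicase, was at 14.5 and 36.0 against 85.9 and 83.6. NOPCHAP1 was at 23.9 and 29.8 against 87.8 and 85.4, and LACTB at 10.7 and 7.82 against 65.5 and 68.2, the 2 genes of this set at which the high replicates were closest. LACTB was open in all 4 libraries, and its best high summits lay in another region, 622 and 602 bp after the start, against 4 and 24 bp for the live summits. There it ranked 11039 and 5496 in the high libraries, against 7602 and 6930 for the live region, so its low percentiles are those of the region at the start and not of the gene. The remaining regions were at ODAD4 and SLC25A35. Of the 20 regions, 15 had an adjusted p under 0.05 in limma on normal scores. Over all 21131 regions 123 higher and 93 lower ones had such an adjusted p. The 20 were chosen for large differences in the same ranks, so their count is no independent support.

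The promoters of a gene start from each end of the order are printed because the rank differences rest on single summits within them. Both are RefSeq promoters of GRCh38.p14, from 250 bases before to 50 after the start, on the gene's strand, 5′ to 3′. Capitals run from the lowest to the highest summit of the group in which the region ranked better, with 10 bases added on either side. ZNF136 lies on the plus strand of chr19:12162846-12163145 and MRFAP1 on the plus strand of chr4:6640435-6640734. Relative to the start, negative values lying upstream, the live summits of ZNF136 were at 7 and -79 bp and the high summits of MRFAP1 at -69 and -67 bp.
ZNF136: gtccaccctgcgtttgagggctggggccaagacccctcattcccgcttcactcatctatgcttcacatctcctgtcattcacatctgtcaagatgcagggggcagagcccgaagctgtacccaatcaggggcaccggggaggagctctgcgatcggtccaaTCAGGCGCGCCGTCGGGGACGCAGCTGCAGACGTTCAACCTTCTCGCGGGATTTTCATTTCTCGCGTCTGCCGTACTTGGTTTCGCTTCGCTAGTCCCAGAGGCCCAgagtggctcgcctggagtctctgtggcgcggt
MRFAP1: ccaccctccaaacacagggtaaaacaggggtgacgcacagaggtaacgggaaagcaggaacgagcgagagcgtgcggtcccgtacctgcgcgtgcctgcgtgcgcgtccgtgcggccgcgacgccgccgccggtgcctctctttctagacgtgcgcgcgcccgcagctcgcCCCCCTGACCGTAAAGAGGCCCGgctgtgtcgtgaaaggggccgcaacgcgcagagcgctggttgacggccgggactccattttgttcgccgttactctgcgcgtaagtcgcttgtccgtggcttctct
The CCAAT box (CCAAT on either strand) occurred 2 times in the ZNF136 promoter and is held by 36.0% of the 15100 promoters. None of the 13 motifs searched matched in the MRFAP1 promoter window.

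Zinc finger genes of chromosome 19 ranked lower in the high libraries as a group. These genes, taken by symbol (ZNF, ZFP or ZSCAN with a number) after the ranks were seen, encode mostly KRAB proteins, which bind DNA through arrays of zinc fingers and recruit TRIM28 to silence transposable elements. Their starts held 116 of the regions, with median percentiles of 42.3 and 51.5 in the high libraries, against 71.5 and 69.4 in the live libraries. The mean percentile was lower in the high group for 111 of the 116 regions (95.7%). Both high libraries were below both live libraries for 80 of them (69.0%) and above them for 2 (1.72%), against 25.0% and 26.0% of all regions tested. Of all 7335 regions at gene starts 33.2% were below and 23.2% above, and of those at the other gene starts of chromosome 19, 45.1% and 15.4%. The median difference was -20.5 percentile points. Without high replicate 1 it was -11.7, and without high replicate 2 it was -24.3. High replicate 2 taken alone was below both live libraries for 92 regions.

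**Figure D4:**
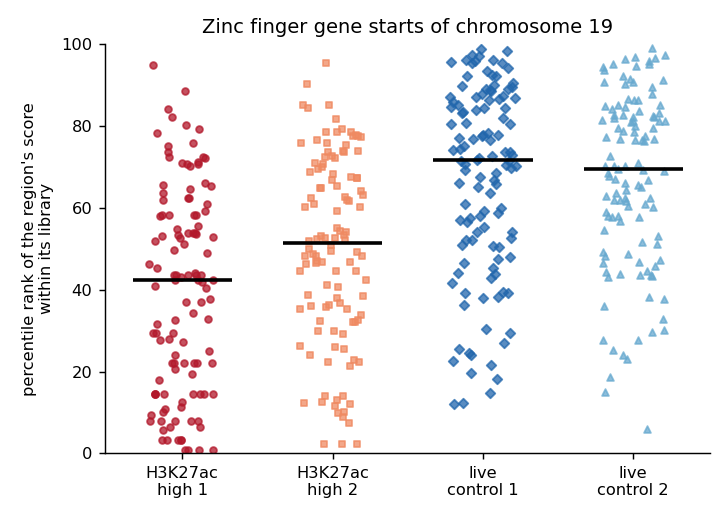
Percentile rank within each library (y axis, 100 is the best) of the 116 regions at starts of zinc finger genes of chromosome 19, 1 point per region, with a black line at the median. The medians are 42.3 and 51.5 in the H3K27ac high and 71.5 and 69.4 in the live control libraries.

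Other gene starts of chromosome 19 had a smaller median difference, a comparison that was not tested. Their 350 regions had median percentiles of 55.6 and 66.3 in the high libraries, against 66.8 and 63.0 in the live libraries, and a median difference of -7.31. There high replicate 2 lay within the live libraries' range and high replicate 1 below it. Over all 950 regions at gene starts of chromosomes 17, 19 and 22 the median difference was -10.4, against -1.44 for the 6385 at gene starts elsewhere. In 5 classes of promoter GC content, from the lowest to the highest, it was -10.8, -16.0, -10.8, -8.36 and -7.18 on the 3 chromosomes and -0.380, -1.86, -1.66, -1.71 and -0.919 elsewhere. With 15 or more genes within 500 kb it was -10.3 against -5.54. Regions over 100 kb from a gene had a median difference of 4.39.

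Counted by gene, 8519 and 9076 of the 19122 protein-coding genes were open in the high libraries, against 9350 and 9323 in the live libraries, and 7789 (40.7%) were open in all 4. Genes open in both high and no live library numbered 96 (0.502%), and genes open in both live and no high library 292 (1.53%). Of the 96 genes 87 had a summit lower in a live list, and of the 292 genes 256 had one in the list of high replicate 2. Among the 262 zinc finger genes of chromosome 19, 128 and 151 were open in the high libraries, against 175 and 179 in the live libraries. Of these genes 17 (6.49%) were open in both live libraries only and 1 in both high libraries only. Leaving out 1 library raised the 96 genes to between 200 and 252 and the 292 genes to between 449 (without live replicate 1) and 967 (without high replicate 2).

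KMT2A, KMT2D, BCL6 and MYB were among the 96 genes, as examples picked after their values were seen. Of the gene lists, 0 of 26 histone acetylation, 0 of 25 Polycomb and DNA methylation and 0 of 26 B cell identity genes were among them. KMT2A, a methyltransferase for lysine 4 of histone H3, ranked 17622 and 11820 in the high libraries, against 38189 and 36740 in the live libraries. KMT2D, of the same family, ranked 8393 and 21248 against 38782 and 27541. BCL6, a repressor that defines germinal centre B cells, ranked 18741 and 21547 against 26235 and 39534. MYB, a transcription factor of blood progenitors, ranked 19723 and 20467 against 47978 and 40255. All 4 had a summit at the start in every library, and that their ranks do not overlap between groups follows from how the 96 genes were chosen.

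Among the 292 genes, CCR7, the chemokine receptor that takes lymphocytes to lymph nodes, ranked 15153 and 24313 in the live libraries, 36825 in high replicate 2 and had no summit in high replicate 1. CDKN1A, the cell cycle inhibitor p21, ranked 16549 and 11795 in the live libraries and 28413 in high replicate 2, with none in high replicate 1. ZNF284 and ZNF550, on chromosome 19, ranked 3562 and 6856, and 6056 and 8721, in the live libraries. In high replicate 2 they ranked 25466 and 25176, and neither was in the list of high replicate 1. Other live-only regions that the naming rule took were at TRIM25, an activator of RNA sensing that ranked 6858 and 8374 in the live libraries and 25233 in high replicate 2, and at XKR8, a lipid scramblase gene. The region at the linker histone gene H1-2 was live-only too, while high replicate 1 had another summit within 1 kb of that start.

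ZNF442, also a KRAB zinc finger gene of chromosome 19, had a live-only region whose nearest high summit in the full lists lay 31956 bp away. It ranked 9305 and 6345 in the live libraries, with summits at chr19:12365702-12365754 (hg38), -71 and -19 bp from the start. Its promoter (chr19:12365634-12365933, minus strand) is shown as the gene start with the longest distance to any high summit among the named regions, with the live summits and 10 bases on either side in capitals.
ZNF442: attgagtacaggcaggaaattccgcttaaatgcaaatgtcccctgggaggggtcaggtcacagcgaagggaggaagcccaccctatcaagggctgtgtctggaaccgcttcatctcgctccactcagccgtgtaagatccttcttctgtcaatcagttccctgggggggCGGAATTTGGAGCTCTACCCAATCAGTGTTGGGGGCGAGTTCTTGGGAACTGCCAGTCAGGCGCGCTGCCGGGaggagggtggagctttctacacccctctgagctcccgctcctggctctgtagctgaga
A CCAAT box was found 1 time in this window. Other live-only regions over 1 kb from any high summit lay 891 bp after the start of SYT5, 4001 bp before that of SLC25A25, 23868 bp before that of FMNL1 and 35449 bp before that of RHOB. The nearest high summits were 12658, 10494, 28210 and 13435 bp away. The region nearest to SFXN1, 55711 bp after its start, was 55355 bp from a high summit.

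The corresponding high-only regions were close to live summits. The full live lists held 70100 and 72476 summits, against 25754 and 46708 in the high lists. Distances to the nearest live and the nearest high summit are therefore not on equal terms. KLHL24 had one 1102 bp after its start, at ranks 2772 and 3792, and the nearest live summit lay 1081 bp from it. BRD10 had one 29 bp before its start, at ranks 5451 and 2947, and the nearest live summit was 1393 bp away. FBXL17, CBLB and OXR1 had such regions with live summits 1535, 2311 and 1033 bp away. CBLB encodes a ubiquitin ligase that dampens lymphocyte receptor signalling, and its region ranked 16051 and 16781. Among all high-only regions at gene starts, those at IPO8 and CHST12 ranked among the best 10. The live summits of IPO8 lay between its high summits, and at CHST12 a live summit lay 6 bp from a high summit. IPO8 ranked 5633 and 6663 in the high libraries, against 28529 and 25149 in the live libraries.

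At some promoters the groups placed their best summit at different positions. Of 6563 genes of known start that were open in all 4 libraries, 4918 had replicate summits within 100 bp of each other in both groups. In 77 of these (1.57%) the groups lay over 200 bp apart, 46 with the high summits upstream and 31 with them downstream. The high summits were nearer to the start in 47 and the live summits in 30. These counts were added after the data were seen. Positions are given in bp from the start, negative values lying upstream. NFE2L2, which encodes the master regulator of the oxidative stress response, had its best summits at -642 and -641 in the high libraries and at 428 and 404 in the live libraries. REST, the repressor of neuronal genes, had them at 21 and -27 in the high libraries and at 924 and 921 in the live libraries.

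**Figure D5:**
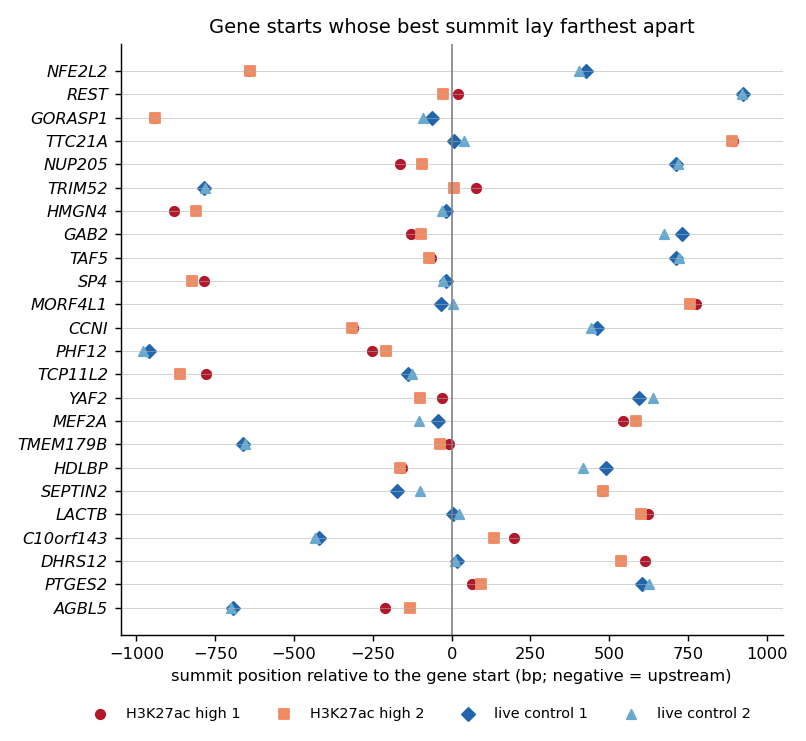
Position of the best summit relative to the gene start (x axis, bp, negative values upstream) in each library for the 24 genes whose group means lay farthest apart among the 77. The replicates of a group lie within 100 bp of each other by choice, and the distance between groups reaches 1045 bp at NFE2L2.

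TAF5, a subunit of the general transcription factor TFIID, had its summits at -66 and -71 in the high libraries and at 711 and 720 in the live libraries. At SP4, which encodes a factor that binds GC boxes, the order was the other way, with -785 and -824 in the high libraries and -18 and -27 in the live libraries. MEF2A, a transcription factor gene, had its summits at 543 and 586 in the high libraries and at -42 and -104 in the live libraries. NUP205, a nuclear pore gene, had them at -163 and -93 against 712 and 717. Some of these genes share the same best summits with a neighbour on the other strand, as GORASP1 with TTC21A and HDLBP with SEPTIN2. Such summits count 2 times among the 77. Over all genes the groups were close: the median summit position over the 6563 genes was -81 and -80 bp in the high and -75 and -73 bp in the live libraries.

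The promoters of REST (chr4:56907650-56907949), TAF5 (chr10:103367726-103368025) and SP4 (chr7:21427833-21428132), all on the plus strand, show the bases at which only 1 group had its best summit. Capitals mark the high summits for REST and TAF5 and the live summits for SP4, with 10 bases on either side.
REST: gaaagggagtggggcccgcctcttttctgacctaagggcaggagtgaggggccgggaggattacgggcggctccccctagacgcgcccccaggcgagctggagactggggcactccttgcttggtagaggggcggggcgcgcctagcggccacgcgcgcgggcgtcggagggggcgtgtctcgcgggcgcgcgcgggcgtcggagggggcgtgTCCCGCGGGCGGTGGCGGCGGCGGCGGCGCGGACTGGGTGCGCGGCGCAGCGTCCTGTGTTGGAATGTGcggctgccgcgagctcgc
TAF5: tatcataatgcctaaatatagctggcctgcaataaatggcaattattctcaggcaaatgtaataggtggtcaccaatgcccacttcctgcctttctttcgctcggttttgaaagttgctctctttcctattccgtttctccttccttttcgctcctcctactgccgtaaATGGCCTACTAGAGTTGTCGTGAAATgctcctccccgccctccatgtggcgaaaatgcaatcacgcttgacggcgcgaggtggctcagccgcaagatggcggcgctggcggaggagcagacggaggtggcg
SP4: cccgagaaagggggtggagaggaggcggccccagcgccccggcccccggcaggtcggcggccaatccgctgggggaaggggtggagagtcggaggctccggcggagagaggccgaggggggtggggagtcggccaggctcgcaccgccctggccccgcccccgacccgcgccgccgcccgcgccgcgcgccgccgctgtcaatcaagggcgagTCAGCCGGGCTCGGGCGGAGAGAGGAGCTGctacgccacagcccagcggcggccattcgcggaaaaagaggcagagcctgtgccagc
The GC box (GGGCGGG on either strand) matched 1 time in each of the 3 promoters and is held by 44.7% of all promoters. A CCAAT box matched in TAF5 and SP4, and the YY1 motif (GATGGCG) matched in TAF5, with a share of 5.78% over all promoters.

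Some of these shifts appeared in the list of high-only and live-only regions as a pair. SP4 and C10orf143 had a region of each kind at their start, as did NFKBIA, the gene of the NF-kB inhibitor. Its high-only region lay 723 bp after the start and ranked 6932 and 6059, and its live-only region lay 21 bp before the start and ranked 9297 and 5268, with 598 bp between their nearest summits. In all, 14 high-only regions (0.985%) had a live-only region within 1 kb. MAP3K2 and MAD2L1BP had high-only regions 353 and 575 bp after their starts with live summits 574 and 758 bp away.

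Genes of the oxidative stress response included genes of both kinds. Of 20 members, 13 were open in all 4 libraries. PRDX1, MAFF and SQSTM1 were open in both high and no live library, and KEAP1, which holds NFE2L2's product in check, in both live and no high library. PRDX1, a peroxiredoxin gene, ranked 18517 and 12759 in the high libraries and had no live summit within 1 kb of either end. Its high summits, at 45521975 and 45521972, lay inside the gene near the edge of that window from the annotated end at 45522890. No high-only region was nearest to PRDX1. Those of this list were at MAFF, NFE2L2 and SQSTM1, so PRDX1 counts by gene only. SQSTM1, an autophagy receptor gene, ranked 15855 and 17563 against 27369 and 25373, and MAFF, a partner of NFE2L2's product, 18425 and 20309 against 25552 and 28916. KEAP1 ranked 13527 and 9744 in the live libraries and 39049 in high replicate 2. The list had 3 and 1 genes of these kinds where 0.502% and 1.53% of all genes were, and in limma MAFF and SQSTM1 had adjusted p = 0.751 and 0.478.

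Of 21 interferon genes 11 were open in all 4 libraries, 2 in both high libraries only and 0 in both live libraries only, where 0.502% and 1.53% of all genes were of these kinds. The 2 genes were MX2, an antiviral GTPase, and RIGI, an RNA sensor. MX2 ranked 8815 and 21643 in the high libraries, against 27616 and 34853 in the live libraries. In live replicate 1 the region that held the other summits ranked 51915, and limma on that region gave adjusted p = 0.228. RIGI ranked 21571 and 19590 against 26785 and 26209, all close to the limit of 24365. The mean percentile of its region was 14.9 in both groups (limma adjusted p = 1.000). SDC1, the plasma cell marker CD138, ranked 12488 and 17924 against 26360 and 25161 (limma adjusted p = 0.378). It was the 1 gene of 12 in the plasma cell list open in both high libraries only, and 9 were open in all 4 libraries. ACTB, of the housekeeping list, ranked 10923 and 16835 against 28329 and 29948 (limma adjusted p = 0.246), as the 1 member of 18 open in both high libraries only, with 13 open in all 4.

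Genes open in both live libraries and no high library were spread over several lists. SPI1, a transcription factor of B and myeloid cells, ranked 12001 and 11356 in the live libraries and 26385 in high replicate 2. VAV1, an exchange factor of antigen receptor signalling, ranked 11600 and 18938, and 39439 in high replicate 2. CD70, a ligand of the TNF family, ranked 16368 and 14177, and 31013 in high replicate 2. HLA-DOB, a modulator of class II loading, ranked 22328 and 10331 with no high summit closer than 21638 bp. JUNB, CBX2, RPL23, BCL11B and CEBPA completed this set, each with a summit in high replicate 2 below its best regions. VAV1, CD70, JUNB, CEBPA and KEAP1 are on chromosome 19, and CBX2 and RPL23 on chromosome 17.

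Open members of the other lists were counted in each library, with no test of a difference. Of all 19122 genes 44.6%, 47.5%, 48.9% and 48.8% were open in high 1, high 2, live 1 and live 2. Of the heat shock and chaperone genes 19, 20, 19 and 20 of 20 were open, in the same order. The corresponding counts were 18, 20, 20 and 20 of 20 for G2 and M phase genes, 20, 21, 19 and 20 of 21 for DNA replication and 23, 25, 26 and 26 of 26 for ribosomal proteins. Regulators of histone acetylation, among them the writers and readers of H3K27ac, were open in 20, 22, 20 and 21 of 26 cases, and 20 were open in all 4 libraries. EP300 and BRD2 were open in some libraries only. B cell identity genes were open in 11, 11, 11 and 12 of 26, a share below that of all genes in each library. B cell receptor genes were open in 10, 13, 14 and 12 of 19, NF-kB genes in 14, 17, 18 and 17 of 22, and MHC genes in 15, 16, 17 and 18 of 18. Polycomb and DNA methylation genes stood at 14, 18, 17 and 18 of 25, immediate early genes at 13, 16, 14 and 15 of 23, and genes of CTCF and cohesin at 12, 14, 14 and 14 of 15. Neural developmental genes were open in 0, 1, 3 and 1 of 16, and HOX cluster genes in 1 of 20 in each library. High replicate 1 had the lowest or joint lowest count in most of these lists.

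Regions were also counted by the nearest gene start within 100 kb, those at gene starts included. Over all protein-coding genes 1031 of 28454 such regions (3.62%) were high-only and 1499 (5.27%) live-only. Near B cell receptor signalling genes 8 of 110 regions were high-only (7.27%) and 3 live-only (2.73%). The genes near high-only regions included DAPP1, LYN, MALT1, PLCG2 and PTPN6, and those near live-only regions included VAV1 and again DAPP1. Near MHC class I and II genes 2 of 43 were high-only (4.65%), near CD74 and CIITA, and 7 were live-only (16.3%), near genes that included HLA-B, HLA-DOB, HLA-DRA, HLA-E and HLA-F. Near ribosomal protein genes 0 of 34 were high-only and 5 live-only (14.7%). These are counts of few regions in lists chosen with earlier results known, and no test was made of them.

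Promoter composition hardly differed between open genes of the libraries. Their mean GC content was 65.0% and 65.2% in the high and 65.2% in both live libraries, and the ratio of observed to expected CpG was 0.844 and 0.845 against 0.841 in both. ETS motifs (CCGGAAG) were held by 23.5% and 23.9% of open promoters in the high libraries, against 23.6% and 23.9% in the live libraries, against 14.4% of all promoters. CCAAT boxes were held by 40.5% and 40.4% against 40.0% and 40.1%. The 73 promoters open in both high libraries only and the 212 open in both live libraries only held ETS motifs in 15.1% and 15.6% of cases and CCAAT boxes in 27.4% each, below the 24.3% and 41.8% of promoters open in all 4. The share of a motif is a description of the letters in these windows and not of binding.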

How the data were processed

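The submitters' processing notes name MACS2, Picard, Bowtie2, FastQC and bcl2fastq, without versions, and builds hg38 and hg19. Settings, the Tn5 shift and duplicate removal were not given in the sources used here. The authors deposited 1 summit list per library, not pooled, whose score was read as −log10 of a p-value or q-value. It grows with depth, so it only ranked summits within a list. Contig names are those of hg38, and coordinates are 1-based.

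Summits were chained under 500 bp, and the 24365 best regions per library compared. Presence was counted, shares were compared by exact permutation tests (SciPy 1.17.1), and percentile ranks of regions called in all 4 lists by limma 3.58.1 (R 4.3.3), eBayes with trend, with Benjamini-Hochberg adjustment. The counting of high-only and live-only regions and limma were run on simulated lists, and the permutation tests were not. No columns were left unmapped. Genes, promoters and their strand came from RefSeq GRCh38.p14. Of 446 entries in 22 gene lists 433 matched.

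Members, lists and motifs were chosen with earlier results of these data known. Named regions were the 10 best-ranked high-only and live-only regions at gene starts, the 6 best of each kind over 1 kb from any summit of the other group, the 10 largest rank differences each way at gene starts (where fewer passed limma, among groups that did not overlap), up to 3 members per gene list and 12 B lymphoblastoid markers. Alternatives covered list length, chaining, score, window, absence, the replicate block, rank scale, gene set and each library left out. The lists show no depth, so precision is unknown. Some genes are not reported here.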

Additional observations from a re-analysis of the deposited data

How the results depend on the processing

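Over 10 results, 58 of 111 alternative values were labelled the same, 48 moved and 5 turned direction. The label asked for a similar size as well as direction, except for the gene-start share of the best regions. There it asked for direction only, and 11 of the 58 are values of that share. The gene-start share of the best regions (-1.60 points) was -3.45 with the 12182 best regions. It turned to 10.4 with full lists of unequal length and to 0.196 with high replicate 2 alone at its own list length. With each library left out it lay between -2.47 and -0.743. High-only regions (1421) numbered 185 with full lists, 100 when absent from the other group's full lists and 7121 with high replicate 2 alone, and 2239 to 5473 with a library left out. Live-only regions (1766) numbered 1072 with the 12182 best regions, 14938 with full lists, 359 when absent from full lists and 5246 with high replicate 2 alone, and 2569 to 4232 with a library left out. Their difference in gene-start share (-6.39 points) was -17.3 with the 12182 best, -3.64 with chaining under 250 bp, -9.49 under 1000 bp, and -14.0 to -1.51 with a library left out. It turned to 30.6 with full lists, 45.1 when absent from full lists and 0.0475 with high replicate 2 alone. Genes open in both high libraries only (96) numbered 236 with the 12182 best, 11 with full lists, 165 over all annotated genes and 202 with high replicate 2 alone, and 200 to 252 with a library left out. Genes open in both live libraries only (292) numbered 495, 782 and 488 in the first 3 of these settings, and 449 to 967 with a library left out. The share on chromosomes 17, 19 and 22 (-2.39 points) kept its direction in all 10 alternatives run and was -1.01 with full lists, -1.24 with high replicate 2 alone and -3.08 to -1.70 with a library left out. The zinc finger rank shift (-20.5) kept its direction in all 7 run, between -24.3 and -11.7 with a library left out. Limma's 0 higher and 0 lower regions became 123 and 93 with normal scores, 126 and 94 with quantile-normalized log2 scores, and 0 to 1291 and 0 to 1547 with a library left out, when the lone library of a group is assumed to vary like the other pair. With the replicate block they became 247 and 298. Replicate numbers did not pair the libraries (correlation of deviations -0.010), so the block only shares a number, and the gene-start share under it stayed at -1.60. The cause of these changes was not tested, apart from those built in: fewer libraries to match, and lists of unequal length. Depth is unknown, and the short list of high replicate 1 limits every comparison of presence.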

Other observations

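Some loci gathered several regions of 1 kind. DUSP10, a phosphatase gene of stress kinases, and S1PR1, the receptor that lets lymphocytes leave lymphoid organs, each had 4 high-only and 0 live-only regions nearest to their start within 100 kb, of 18 and 10 best regions there. Over all protein-coding genes 3.62% of such regions were high-only and 5.27% live-only. FLI1, MEF2D, RGS1, PMAIP1, DRAM1, CTSC and TBC1D4 were among the genes with 3 high-only and 0 live-only regions. In that order they had 8, 5, 16, 16, 10, 7 and 13 best regions. PTPN1, a tyrosine phosphatase gene, and PODXL were among the genes with 3 live-only and 0 high-only regions, of 6 and 5 best regions. FUT8 had 3 live-only and 1 high-only region of 10. These genes were picked by the count itself, which is given as a description.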
